A study of Homo sapiens with 6 samples.

Results

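Broad open regions of RKO cells were taken as stretches of accessible chromatin in which a single ATAC-seq peak reached at least 1200 bp in every DMSO sample. RKO, an established line of colon cancer cells, was used throughout, and each of the 6 samples came from exponentially growing cells kept in low oxygen, treated with RNase-free DNase and frozen before the assay. In the APH group 3 samples were treated with 0.2 µM aphidicolin for 16 h, a low dose of an inhibitor of replicative DNA polymerases, and the DMSO group holds 3 samples given DMSO. The paper describes 3 independent experiments, but no label tells which DMSO and APH samples belong to the same one. All were on 1 line, so differences between lines were not examined. Peaks of the 6 samples were merged into 102784 regions wherever they overlapped by 1 bp or more. A total of 570 regions met the width rule, and each of them also had a peak in every APH sample. Because the rule used the DMSO widths, those widths and their difference from APH are given as descriptions, and nothing is read from a test of them. One library weighed heavily in this choice, since 1155 regions met the rule when DMSO replicate 2 was left out.

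In ATAC-seq, a transposase inserts sequencing adaptors where DNA is not wrapped around nucleosomes, so a peak marks DNA that proteins can reach. Promoters rich in CpG dinucleotides are usually kept free of nucleosomes and often drive transcription in both directions, whereas enhancers tend to be open over shorter stretches. A wide peak can therefore cover a promoter with its first nucleosomes, a pair of neighbouring gene starts, or a cluster of short genes such as those for transfer RNA.

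Most broad open regions lay at gene starts. The midpoint of 488 of the 570 regions (85.6%, 95% Wilson interval 82.5 to 88.3%) was within 1 kb of a RefSeq start of a protein-coding or long noncoding RNA gene, against 26.3% of the 50150 regions that held peaks of each of the 6 samples, called shared regions below. A start lay inside 486 of them, and they held the starts of 688 genes, of which 555 were protein-coding. Starts of 1 gene were held by 289 regions, of 2 genes by 190 and of 3 genes by 7, while 84 held none. A gene with several starts in a region was counted once. Divergent pairs, in which genes on opposite strands start within 1 kb of each other and point apart, were present in 162 of the 486 regions with a start (33.3%) and in 22.1% of the other shared regions with one. The regions compared were not matched on length, and a longer region has more room for both starts of a pair. Regions chosen by the same width in every APH sample had a promoter share of 84.0%.

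The promoter share followed width across all shared regions and levelled off below the threshold. It was 7.98% for a mean width over the 6 samples of 200 to 300 bp, 7.33% for 300 to 400 bp, 24.1% for 400 to 600 bp, 66.4% for 600 to 800 bp and 81.5% for 800 to 1000 bp. Above that it was 86.2% for 1000 to 1200 bp, 86.7% for 1200 to 1400 bp and 82.8% for 1400 bp and more. The share of divergent pairs among regions with a start was 10.2% at 200 to 300 bp and then rose over the same classes from 7.42% at 300 to 400 bp to 23.7% at 600 to 800 bp and 31.9% at 1400 bp and more. Regions of 800 to 1000 bp thus already had most of the promoter share of the broad regions.

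**Figure D1:**
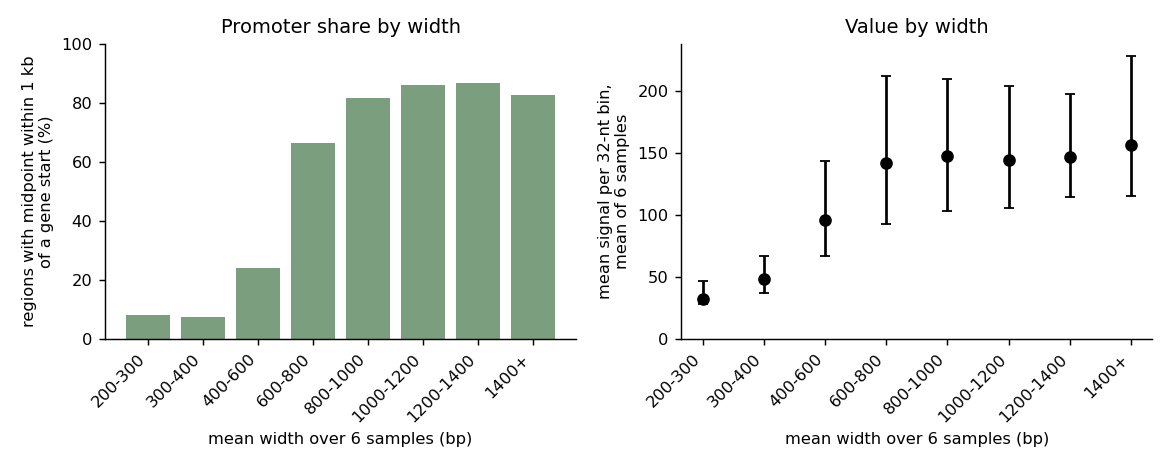
Left, percentage of shared regions whose midpoint was within 1 kb of a gene start, by mean width over the 6 samples in bp. Right, median of the mean value (signal per 32-nt bin) of the same regions, with bars from the lower to the upper quartile. The promoter share was below 8.0% up to 400 bp and between 81.5 and 86.7% from 800 bp, and from 800 bp the median value stayed between 144 and 156.

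The sequences at the starts of the widest promoter regions and at starts with few and many CpG show what these regions cover. Each window runs from 250 bases before to 50 bases after a gene start, 5′ to 3′ on the strand of the gene, from RefSeq on GRCh38.p14, with CpG in capitals. ELF1 encodes an ETS family transcription factor and WBP4 a splicing factor, and their starts lie head to head in the second widest region. ZNF140 encodes a zinc finger repressor and GOLIM4 a Golgi membrane protein. SET, which encodes a histone chaperone, was among the starts with fewest CpG, and CAMKK2, a calcium-dependent kinase, had the most among the members with a window.
ELF1, chr13:41061337-41061636, - strand: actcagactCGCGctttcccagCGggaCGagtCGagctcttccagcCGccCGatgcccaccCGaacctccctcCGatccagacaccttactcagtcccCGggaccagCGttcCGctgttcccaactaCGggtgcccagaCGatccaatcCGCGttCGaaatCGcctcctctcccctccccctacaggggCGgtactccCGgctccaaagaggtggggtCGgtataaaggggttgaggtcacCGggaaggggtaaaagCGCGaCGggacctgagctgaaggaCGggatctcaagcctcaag
WBP4, chr13:41061259-41061558, + strand: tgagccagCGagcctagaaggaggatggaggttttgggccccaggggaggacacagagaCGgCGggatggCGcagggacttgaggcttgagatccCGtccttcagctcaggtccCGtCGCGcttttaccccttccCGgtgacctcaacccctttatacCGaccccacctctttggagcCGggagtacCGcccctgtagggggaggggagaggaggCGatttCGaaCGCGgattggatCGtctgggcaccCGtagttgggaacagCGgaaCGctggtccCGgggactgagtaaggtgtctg
ZNF140, chr12:133080673-133080972, + strand: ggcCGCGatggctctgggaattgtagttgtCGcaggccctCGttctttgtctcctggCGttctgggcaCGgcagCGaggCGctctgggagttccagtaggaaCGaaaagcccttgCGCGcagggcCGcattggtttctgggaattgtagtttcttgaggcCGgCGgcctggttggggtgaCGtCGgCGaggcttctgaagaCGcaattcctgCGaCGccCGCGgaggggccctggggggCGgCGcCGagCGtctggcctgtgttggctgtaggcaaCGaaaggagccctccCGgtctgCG
GOLIM4, chr3:168095875-168096174, - strand: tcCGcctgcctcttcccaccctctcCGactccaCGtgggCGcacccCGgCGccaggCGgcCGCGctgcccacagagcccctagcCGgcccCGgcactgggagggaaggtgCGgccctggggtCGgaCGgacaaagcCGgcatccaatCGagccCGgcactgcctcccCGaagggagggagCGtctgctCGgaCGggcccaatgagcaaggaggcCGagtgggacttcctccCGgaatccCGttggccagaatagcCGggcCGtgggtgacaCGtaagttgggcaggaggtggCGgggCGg
SET, chr9:128684822-128685121, + strand: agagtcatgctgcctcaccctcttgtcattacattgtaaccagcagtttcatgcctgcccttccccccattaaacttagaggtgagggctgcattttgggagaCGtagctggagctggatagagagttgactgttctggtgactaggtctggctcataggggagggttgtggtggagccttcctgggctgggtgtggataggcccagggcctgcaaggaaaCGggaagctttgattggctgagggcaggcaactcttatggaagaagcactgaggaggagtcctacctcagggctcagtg
CAMKK2, chr12:121296660-121296959, - strand: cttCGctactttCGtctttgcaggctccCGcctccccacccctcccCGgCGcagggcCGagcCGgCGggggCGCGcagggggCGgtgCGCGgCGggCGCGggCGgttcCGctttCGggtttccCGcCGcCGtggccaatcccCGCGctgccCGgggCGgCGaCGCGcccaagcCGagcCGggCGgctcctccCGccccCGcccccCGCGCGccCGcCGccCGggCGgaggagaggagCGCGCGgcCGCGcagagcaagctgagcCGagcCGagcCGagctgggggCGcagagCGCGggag
The ELF1 and WBP4 windows held 26 and 21 CpG, and the ZNF140 and GOLIM4 windows 29 each. The SET window held 2 and the CAMKK2 window 52.

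The members' promoter windows were rich in G, C and CpG, with values near those of other open promoters. Sequence windows were at hand for 407 of the 486 broad regions with a start, and for none of the 42 on chromosome 8, so the 79 others are not covered by these shares. The 748 windows whose start lay in a broad region had a median of 27.5 CpG in 300 bases and a GC content of 67.3%. The 12806 windows in other shared regions had 27.0 CpG and 66.0% GC, and the 20510 windows outside any merged region had 5.0 CpG and 51.0% GC. Fewer than 5 CpG were found in 4 of the 748 windows. The letters GGGCGG, the core of the GC box, were found on either strand in 74.7% of the members' windows, 72.4% of those in other shared regions and 44.9% of all windows. The letters TATAAA were found in 3.21%, 4.64% and 11.6% of the same sets, and CCAAT in 30.7%, 36.6% and 34.6%. For CCGGAAG, the ETS core, the shares were 17.2%, 20.6% and 10.2%. For TGACTCA, the AP-1 site, they were 2.41%, 4.11% and 4.96%, and for CACGTG, the E-box, 12.6%, 9.97% and 7.23%. Overlaps between the motifs were not removed, and these shares were not tested.

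Measured from the outermost start, the broad peaks within the promoters reached farther into the gene than away from it. In the 256 regions with starts on 1 strand only whose outermost start lay within the longest peak of each of the 6 samples, the median length upstream of the start was 531 bp in DMSO replicate 1, 528 bp in replicate 2 and 516 bp in replicate 3, and the median length downstream was 843, 824.5 and 830.5 bp. In the APH samples these lengths were 513.5, 501.5 and 519.5 bp upstream and 774.5, 758.5 and 785 bp downstream. The downstream part was the longer one in 62.1 to 66.4% of these regions, depending on the sample. In 3601 regions of 600 to 1000 bp it was the longer one in 37.7 to 50.7%. Lengths ran from the outermost start, so in regions with several starts the others lay in the downstream part. These sets were not matched on the number of starts, and the contrast was not tested.

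The 82 broad regions away from gene starts held transfer RNA genes and the far ends of genes more often than other regions did. At least 1 of the 443 RefSeq transfer RNA genes was held by 9 of the 82 (10.98%), against 0.466% of all distal shared regions and 1.61% of those with a mean value of at least 100. The 3′ end of a gene was held by 8 of them (9.76%), against 0.904% and 1.95% of the same sets. These classes were chosen after their values were seen, and the regions compared were not matched on length. With the promoter regions counted, 16 broad regions held 28 transfer RNA genes, and 7.14% of the 224 shared regions with such a gene were broad, against 1.14% of all shared regions. Small nuclear RNA genes were held by 3 broad regions, among them RNU7-1, which processes histone pre-mRNA, and RNU6ATAC of the minor spliceosome, and microRNA genes by 7.

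Transfer RNA genes are short, are read by RNA polymerase III and often stand in groups. The region chr17:8186674-8188068 near BORCS6 held TRS-GCT4-3, TRT-AGT1-1 and TRI-AAT5-5, its widths were 1349, 1379 and 1395 bp in DMSO and 1389, 1374 and 1377 bp in APH, and its peak was whole in every sample. The region chr17:49191817-49193274 near GNGT2 held TRQ-TTG1-1 alone and measured between 1446 and 1458 bp in all 6 samples. In the region chr17:75033635-75035526 within KCTD2, with 3 arginine transfer RNA genes, the longest peak was 1868, 1236 and 1867 bp in DMSO and 1822, 1788 and 1871 bp in APH, where DMSO replicate 2 alone was called as 2 peaks. The groups overlapped in width at all 3 regions.

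The members spread over nearly all chromosomes. Chromosome 8 held 48 of them (8.42%) and 5.49% of the shared regions, and chromosome X held 7 (1.23%) and 2.79%. Copy number in this line was not measured here, and its part in these shares was not tested.

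By gene list, broad regions held the starts of a minority of every functional group examined. Over all 32564 genes with a known start, 2.11% had a start in a broad region, and over protein-coding genes 2.82%. Of the 19671 protein-coding genes, 10693 had a start in a shared region, and 555 had one in a broad region. The lists differed in this, with 81 of 88 cytosolic ribosomal protein genes and 46 of 48 proteasome genes in shared regions. For HOX genes it was 19 of 39. List shares are therefore not read against the 2.82% alone. Replication-dependent histone genes, which package newly made DNA, had 4 of 69 (H1-2, H2BC5, H2AC25 and H2BC26), and cytosolic ribosomal protein genes 4 of 88 (RPL7, RPL28, RPL9 and RPL12). Among p53 targets, 3 of 28 were in broad regions, namely SESN1 and TP53I3, stress-response genes, and RRM2B, a ribonucleotide reductase subunit that supplies DNA precursors. Of 39 replication stress response genes, 2 were held, CHEK1, the checkpoint kinase, and ORC1, the largest subunit of the origin recognition complex. SR and hnRNP splicing genes had 3 of 33 (HNRNPUL2, HNRNPA1 and HNRNPH1), proteasome genes 3 of 48 (PSMB9, PSMD13 and PSME2), chromatin architecture genes 2 of 23 (HMGA2 and HMGB2), and MAPK output genes 2 of 23 (DUSP4 and ETV4). The AP-1 genes had 1 of 15 (JUND), immediate early genes 1 of 37 (DUSP4), chaperone genes 1 of 18 (HSP90AB1), small nucleolar RNA hosts 1 of 32 (SNHG31), and genes silenced in the CpG island methylator phenotype 1 of 26 (CDKN2A). Zinc finger genes with a ZNF symbol had 14 of 509. None of the 39 HOX genes, 34 intestinal lineage genes, 22 mesenchymal genes, 20 WNT targets or 3 abundant nuclear noncoding RNA genes with a start was held. Of the 34 intestinal lineage genes, 8 had a start in a shared region, beside 10693 of all 19671 protein-coding genes. Shares over lists this short were not tested.

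Broad regions were strong on average but were not the strongest regions. The value of a region is the mean signal per 32-nt bin over its peaks. Mean DMSO values ran from 56.1 to 1656, with a median of 165 and quartiles of 123 and 224. The median value of the members was 165, 155 and 174 in the DMSO samples and 128, 132 and 148 in the APH samples, which is 1.80 to 2.71 times the median of all shared regions in the same sample. When the shared regions were ranked by mean value and cut into 10 groups of equal size, 168 members were in group 10, the strongest, 158 in group 9 and 131 in group 8, but 113 were in groups 4 to 7. Of the 570 shared regions with the highest values, 16 were members.

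Value did not follow width among the members in DMSO. Over the 570 regions, the Spearman correlation of mean DMSO value with mean DMSO width was -0.0084, and it was 0.22 between the APH means. In APH replicates 1, 2 and 3 taken singly it was 0.17, 0.20 and 0.056. Over all shared regions it was 0.74 in DMSO and 0.69 in APH. The members cover a narrow range of DMSO widths by their choice, while their widths went down to 346 bp in APH replicate 1. Each correlation is across regions of the same libraries. In the 190 narrowest members, 1209 to 1324 bp, the median DMSO value was 171, in the 190 of middle width 159.8, and in the 190 widest, 1428 to 2481 bp, 158. Over all shared regions the median value rose from 47.9 at 300 to 400 bp to 142 at 600 to 800 bp and was 144 at 1000 to 1200 bp, so that the rise ended well below the threshold.

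**Figure D2:**
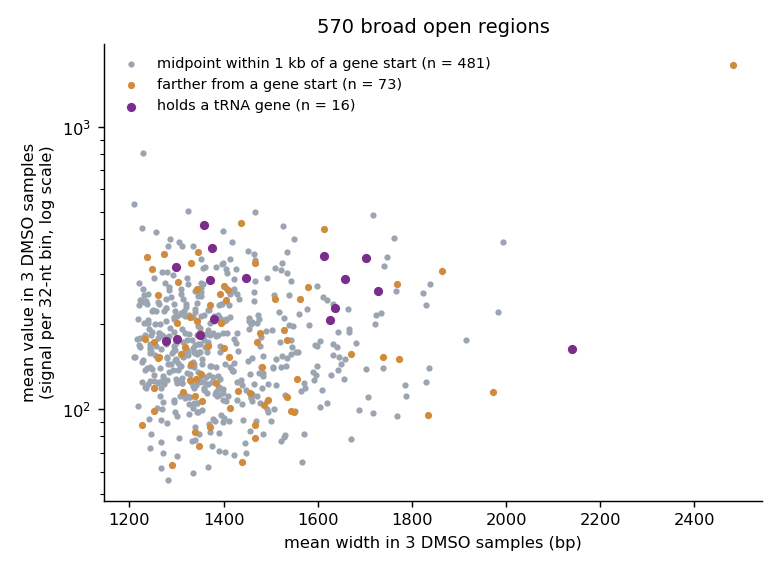
Mean value (signal per 32-nt bin, log axis) against mean width (bp) of the 570 broad open regions in the 3 DMSO samples, each point a region. Values spread from 56.1 to 1656 with no trend in width, and 1 region stood apart at 2481 bp and 1656.

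The widest member lay inside the uncharacterized gene LOC102724701 at chr21:6368966-6371564. Its widths were 2453, 2509 and 2481 bp in DMSO and 2432, 2217 and 2547 bp in APH, and its values 1556, 1860 and 1553 in DMSO and 1332, 1589 and 1149 in APH. The groups overlapped in width and in value. CIC, a repressor of MAPK target genes, was also among the 5 members of highest value, with 493, 584 and 518 in DMSO and 434, 428 and 411 in APH, and its groups did not overlap in value.

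Of the other wide members, some measured alike in all samples and some did not. The ZNF140 region measured 1966, 2010 and 2003 bp in DMSO and 1973, 1967 and 1941 bp in APH. The GOLIM4 region measured 1956, 1970 and 2020 bp in DMSO and 1959, 1966 and 1979 bp in APH. At the ELF1 and WBP4 starts, which share the region chr13:41060069-41062256 with the transfer RNA gene TRE-TTC1-2, the longest peak was 2147, 2109 and 2162 bp in DMSO and 1541, 1529 and 1494 bp in APH. In the ELF1 region a single peak in each DMSO sample stood against 2 peaks in each APH sample. The region chr1:28508962-28511092, which holds the 3′ end of the small nucleolar RNA host SNHG3, measured 1741, 1837 and 2012 bp in DMSO and 2128, 1985 and 1846 bp in APH, and its groups overlapped. Regions around RPL7 and RDH10, ANKRD50, and near SOX4 were also called as more than 1 peak in some samples of both groups.

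The lowest values among members belonged to ARHGEF3, with 55.2, 48.3 and 64.7 in DMSO and 58.2, 52.1 and 62.3 in APH, and to TMEM237, a gene of the ciliary transition zone, with 67.2, 51.8 and 58.5 in DMSO and 49.5, 39.4 and 60.1 in APH. The groups overlapped at both. AMOT, IFIT5 with LIPA, and a region near ARID1B completed the lowest 5. Just inside the width threshold were BMS1, OLMALINC and OSGEP with APEX1, each with 1200 bp in a DMSO sample. Just outside were PPP1R12B, ERP44 with INVS, and a region near LOC105373335, each at 1199 bp in a DMSO sample.

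**Figure D3:**
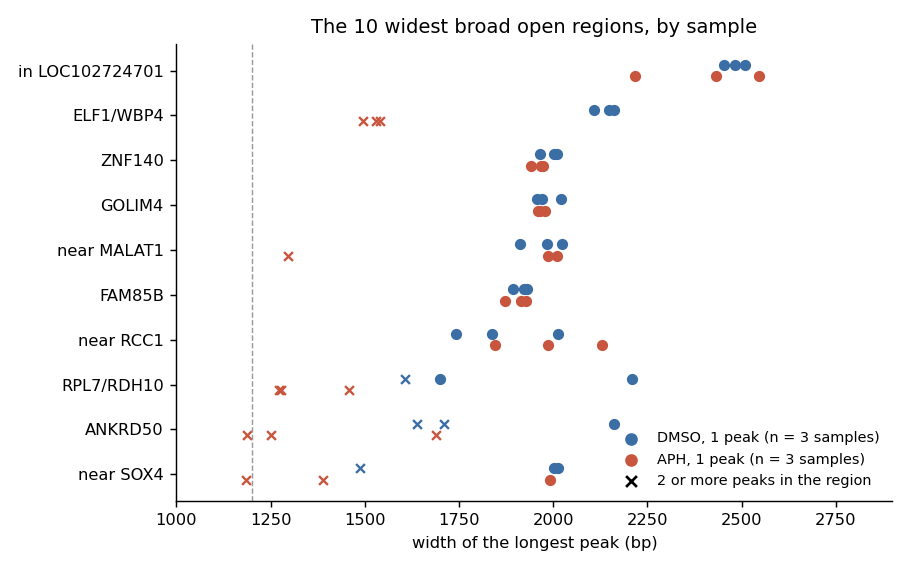
Width of the longest peak (bp) in each of the 3 DMSO (blue) and 3 APH (red) samples for the 10 widest broad open regions; crosses mark samples in which the region was called as 2 or more peaks and the dashed line is the 1200 bp threshold. The ELF1/WBP4 region had 1 peak of at least 2109 bp in each DMSO sample and a longest peak of at most 1541 bp in each APH sample.

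How many broad peaks a sample had varied more within a group than between groups. Peaks of at least 1200 bp numbered 1659, 762 and 1547 in the DMSO samples (1323 ± 489, mean ± SD, n = 3) and 883, 722 and 1427 in the APH samples (1011 ± 369, n = 3). Between the means lay -312, APH minus DMSO, with a two-sided exact permutation p of 0.40, where 0.10 is the smallest that 3 against 3 samples allow. As a percentage of all peaks, they made up 2.52, 0.987 and 2.40% in DMSO and 1.11, 0.854 and 2.04% in APH, with an exact permutation p of 0.30. DMSO replicate 2 thus resembled APH replicates 1 and 2, and APH replicate 3 resembled the other DMSO samples.

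Samples with more peaks had fewer broad ones. All peaks numbered 65865, 77194 and 64511 in DMSO and 79807, 84510 and 70121 in APH. Over the 6 samples, the number of broad peaks against the number of all peaks had a Pearson r of -0.951 (exact permutation p = 0.018) and a Spearman correlation of -0.886 (exact permutation p = 0.033), with Benjamini-Hochberg adjustment over the pair giving at most 0.033. Without the 2 samples farthest from the median r was -0.959 over 4 samples. The values of the 3 samples of either group alone were too few for a correlation within groups.

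**Figure D4:**
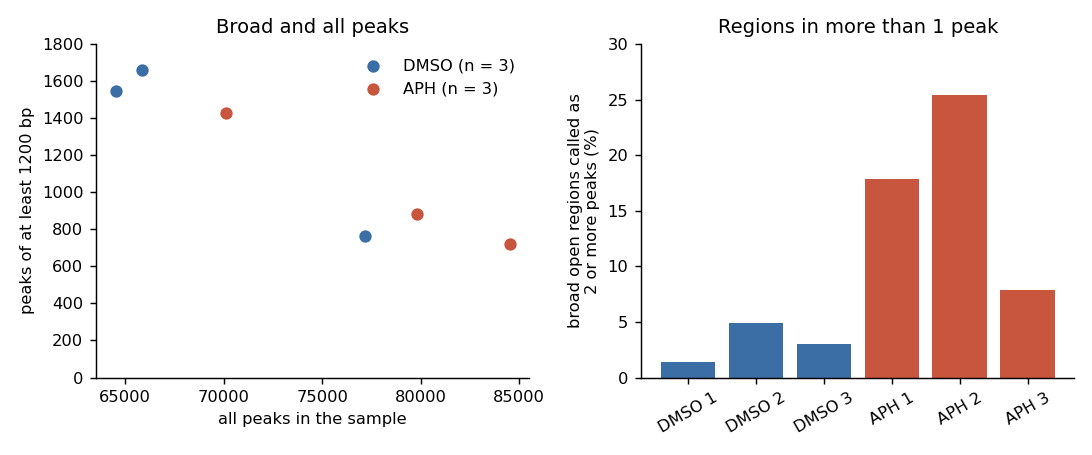
Left, number of peaks of at least 1200 bp against the number of all peaks in each sample. Right, percentage of the 570 broad open regions that were called as 2 or more peaks in each sample; the percentages were 1.40 to 4.91 in DMSO, whose widths chose the regions, and 7.89 to 25.4 in APH.

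In APH the members kept most of their width, and the change depended on how they were chosen. A peak of at least 1200 bp was present at 448, 405 and 519 of the 570 members in the 3 APH samples, at 355 in all of them and at 24 in none. The median width of the members was 1371, 1346.5 and 1367 bp in DMSO and 1320.5, 1298 and 1359 bp in APH. The median difference of log2 width was -0.026 for the members, a sign that a choice on DMSO widths favours. For the 486 regions chosen on APH widths it was 0.016, for the 355 wide in all 6 samples 0.0018, for the 835 with a mean width of 1200 bp over the 6 samples -0.0098, and for all shared regions -0.0098. The sign of the median width change thus turned with the choice of regions.

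Members were called as more than 1 peak more often in the APH samples, and this too moved with the choice of regions. Those in 2 or more peaks numbered 8, 28 and 17 in DMSO and 102, 145 and 45 in APH. Among regions chosen on APH widths the numbers were 21, 70 and 36 in DMSO and 16, 20 and 13 in APH, and among those chosen on the mean they were 49, 206 and 72 in DMSO and 171, 227 and 81 in APH. In 17 members every DMSO sample had 1 peak and every APH sample 2 or more. Of the regions chosen on APH widths, 1 had this pattern and 1 its reverse. The same shares over all shared regions were not worked out, so the splitting is not read as particular to the members. When the lengths of all peaks in a region were summed, the median difference of log2 length for the members was -0.018. Within each group the number of split members was highest in the sample with most peaks, DMSO replicate 2 and APH replicate 2, and the part of peak number in the splitting was not tested.

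**Figure D5:**
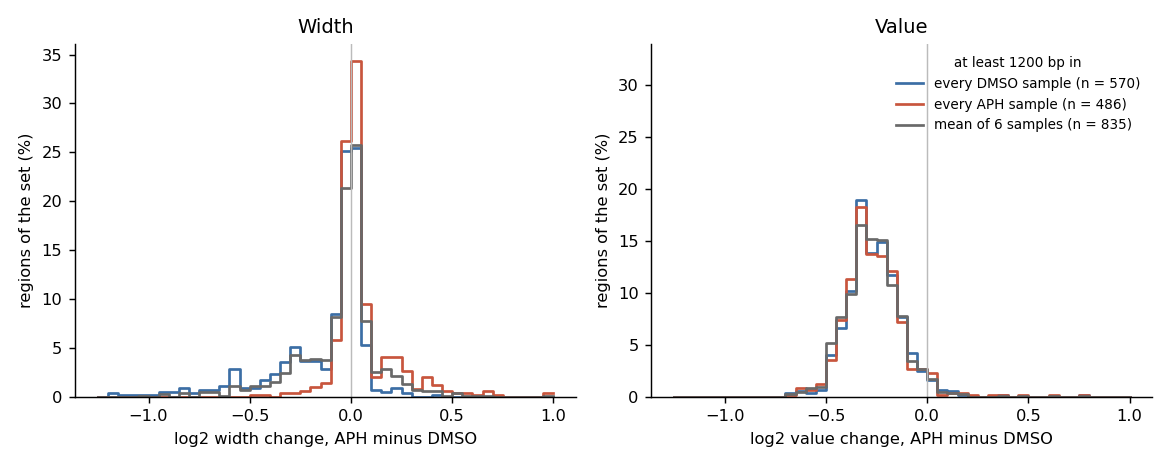
Distribution of the log2 change of width (left) and of value (right), APH minus DMSO, in regions of at least 1200 bp in every DMSO sample, in every APH sample, or in the mean of the 6 samples; steps give the percentage of each set in bins of 0.05. Median width change was -0.026, 0.016 and -0.0098 in these sets, while median value change was -0.27 in all 3.

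In a limma fit of log2 width over all 50150 shared regions, 14 regions were narrower in APH at a Benjamini-Hochberg adjusted p under 0.05 (0.0279%) and 7 wider (0.0140%), and 6 of those narrower were members. Since the members were chosen on DMSO width, nothing is read from that count. They were TYSND1, a peroxisomal protease gene, CRACR2A, a calcium channel regulator, ELF1 with WBP4, ARHGEF3, EFR3A, and RPL12 with LRSAM1. At TYSND1 the longest peak was 1530, 1444 and 1611 bp in DMSO and 675, 615 and 709 bp in APH. At RPL12, a ribosomal protein gene, it was 1374, 1313 and 1369 bp in DMSO and 742, 750 and 720 bp in APH. The groups did not overlap at either gene, and both regions held 2 peaks in every APH sample. The count of members called narrower was 0 with summed lengths and 0 with a term for replicate number in the fit. It was 0 to 31 with 1 sample left out, being 7 without DMSO replicate 2 (1.23%, against 0.261% of all shared regions). It was 31 without APH replicate 3 (5.44%, against 0.203%) and 0 without any of the other 4.

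All APH widths were above all DMSO widths at 28 members (4.91%, against 5.55% of all shared regions), and all below at 67 (11.8%, against 6.11%), shares that the choice on DMSO widths moves. Among regions chosen on APH widths the numbers were 63 and 16, and among those chosen on the mean 52 and 43. The region chr16:89564203-89566418 within RPL13 had longest peaks of 1407, 1322 and 1372 bp in DMSO and 2161, 2115 and 1391 bp in APH. HCFC1R1 and THOC6, the latter part of the mRNA export complex, shared a region of 1238, 1513 and 1257 bp in DMSO and 1635, 1682 and 1541 bp in APH. The groups overlapped at RPL13 and did not overlap at HCFC1R1.

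The value of the members was lower in APH, with a like median under each choice of regions. A lower mean in APH was found at 551 of the 570 members, against 59.3% of all shared regions, and the median difference of log2(value + 1) was -0.27 for the members and -0.06 for all shared regions. With 1 sample left out the members' median stayed between -0.33 and -0.23, while that of all shared regions turned to 0.04 without DMSO replicate 2 and 0.01 without APH replicate 3 and was -0.12 without APH replicate 2. Over the full samples it was -0.27 for regions chosen on APH widths, -0.28 for those wide in all 6 samples and -0.27 for those chosen on the mean. All APH values were below all DMSO values at 285 of the 570 members, against 14.4% of all shared regions, and all above at 2 (0.351%, against 4.21%). At an unadjusted p under 0.05 in the limma fit, 208 members were lower (36.5%, against 10.1%) and 2 higher (0.351%, against 2.46%). After Benjamini-Hochberg adjustment 0 of the 50150 regions passed in either direction, and the smallest adjusted p was 0.29. With a term for replicate number in the fit, 223 members were called lower (39.1%, against 11.1% of all shared regions). With that term 2 members were called higher (0.351%, against 2.04%). No label ties a replicate number to a shared batch, so the fit without that term was kept.

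Scaling the samples changed how often the groups separated, and quantile normalization also the size of the difference. For nearly all peaks tested the deposited values are sums of whole counts divided by the number of bins, and whether the libraries were brought to equal depth before that is unknown. Centred on the median of the shared regions, the median difference was -0.24 for the members and -0.03 for all shared regions, 545 members were lower, against 54.9% of all shared regions, and all APH values were below all DMSO values at 78 members (13.7%, against 11.4%) and all above at 4 (0.702%, against 9.09%). After quantile normalization the median difference was -0.10 for the members, 444 were lower, against 51.3% of all shared regions, and all APH values were below all DMSO values at 33 (5.79%, against 7.51%) and all above at 16 (2.81%, against 8.63%). The members' median stayed below that of all shared regions on each scale, while the groups separated at single members far less often once the values were scaled.

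The lower values were not limited to the strongest regions. In value group 5 of 10, the median difference was -0.26 for the 15 members and -0.01 for the others. In group 7 it was -0.25 for 64 members and -0.10 for the others, and in group 10 -0.27 for 168 members and -0.24 for the others. By width class over all shared regions, the median difference was 0.04 at 300 to 400 bp, -0.07 at 400 to 600 bp, -0.23 at 600 to 800 bp and -0.26 at 800 to 1000 bp, with -0.27 at 1200 to 1400 bp. The members thus had the value change of regions of 800 bp and more. As a share of the signal in all peaks, the members took up 4.93, 4.36 and 5.04% in DMSO and 4.20, 4.01 and 4.79% in APH, and the groups overlapped.

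The following promoters are examples, most of them lower in APH. At FBRS, a Polycomb-associated factor, values were 307, 362 and 346 in DMSO and 209, 224 and 227 in APH, a log2 difference of -0.62 ± 0.13 (SE, n = 3 a group). JUND, an AP-1 subunit, had 158, 144 and 192 in DMSO and 84.4, 96.8 and 137 in APH, a difference of -0.65 ± 0.18. NAIF1 and SLC25A25, a mitochondrial carrier, had 432, 576 and 485 in DMSO and 335, 361 and 341 in APH, a difference of -0.52 ± 0.14. The groups did not overlap at any of these promoters, and none passed adjustment. Values were 213, 178 and 223 in DMSO and 136, 137 and 172 in APH at SESN1, a difference of -0.47 ± 0.15. At TP53I3 the groups overlapped, with 255, 236 and 275 in DMSO and 242, 251 and 267.5 in APH.

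Checkpoint, origin and histone genes were also among the members. CHEK1 had values of 176, 155 and 183 in DMSO and 152, 155 and 165 in APH, which overlapped. ORC1 had 169, 179.5 and 152 in DMSO and 135, 135 and 127 in APH, which did not. H1-2, a linker histone gene, had 209, 245 and 201 in DMSO and 157, 180 and 151 in APH, a difference of -0.42 ± 0.14. H2BC5 had 300.2, 346 and 289 in DMSO and 262, 274 and 229 in APH, and both histone regions were lower in every APH sample than in any DMSO sample.

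All 16 broad regions with a transfer RNA gene had a lower mean value in APH, with log2 differences from -0.49 to -0.15 and a median of -0.32. At 13 of them all APH values were below all DMSO values, against 50% of all members and 14.4% of all shared regions. Centred on the sample median, 16 were lower and 10 had all APH values below all DMSO values, against 13.7% of all members and 11.4% of all shared regions. After quantile normalization 13 were lower, 3 had all APH values below and 1 all above. The shares below and above were 5.79% and 2.81% of all members and 7.51% and 8.63% of all shared regions. The median difference for these 16 regions was then -0.098, beside -0.10 for all members. The pair of leucine transfer RNA genes TRL-CAG2-1 and TRL-CAG2-2 near PLLP had values of 416, 532 and 395 in DMSO and 346, 384 and 311 in APH. The selenocysteine transfer RNA gene TRU-TCA1-1, near FOSB, had 182, 177 and 174 in DMSO and 131, 155 and 135 in APH. The groups did not overlap at either.

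A higher mean value in APH was found at 19 members, and those described here were chosen after their values were seen. At chr1:209612687-209614243, which holds the 3′ end of CAMK1G, a calmodulin-dependent kinase gene, values were 97.4, 112 and 114 in DMSO and 187, 193 and 167.5 in APH, a log2 difference of 0.76 ± 0.14 (limma, Benjamini-Hochberg adjusted p = 0.29). Its widths were 1495, 1498 and 1488 bp in DMSO and 1508, 1531 and 1493 bp in APH, so its extent was steady while its signal was higher in every APH sample. A region beyond the end of MALAT1, a nuclear noncoding RNA gene, with its midpoint 8598 bp from the nearest start of that gene, had 110, 130.3 and 105 in DMSO and 168, 147 and 129 in APH, and its groups overlapped. The region near ZNF605 had 101, 114 and 119 in DMSO and 119.5, 136 and 121 in APH, and these did not overlap. The 8 distal members at gene 3′ ends had a higher mean value in APH at 4 and a lower one at 4, with log2 differences from -0.40 to 0.76. The one at CCDC85B and FOSL1 had 403, 470 and 426 in DMSO and 449.9, 480 and 394.5 in APH, and the one at SPATC1 309, 356 and 326 in DMSO and 346, 397 and 331 in APH, both overlapping.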

How the data were processed

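The deposited ATAC-seq peaks of RKO cells were used, from 3 DMSO and 3 APH samples grouped by their labels. Alignment with BWA 0.7.12 and peak calling per sample with MACS2 2.1.0 on hg38 are given in the submitters' processing notes and the study's methods, which also give removal of duplicates and blacklisted peaks. The deposited value is the mean signal over a peak, from a map with 32-nt bins into which alignments lengthened to 200 bp were counted. Among peaks with a width under 1000 bp and a value under 1000, it gave a whole number, within the rounding of 6 significant digits, when multiplied by 1 of 4 possible bin numbers in 99.99% of peaks or more in each sample, and no later scaling to library size was seen. Whether reads were drawn to equal depth before is unknown. Depth is unknown, so no counting interval is given. Peaks overlapping by at least 1 bp were merged. Width is the longest peak of a region in a sample, and value the length-weighted mean of its peaks.

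Log2 width and log2(value + 1) over the 50150 shared regions were compared with limma 3.58.1 (R 4.3.3) with a trend and Benjamini-Hochberg adjustment at 0.05. On simulated data the width fit recovered 26% of changes of 0.5 on the log2 scale and 50% of changes of 1, and the value fit 2% and 28%. Single values per sample were compared with two-sided exact permutation tests. Starts of 32564 genes came from RefSeq GRCh38.p14, and for 5259 of them the strand came from GENCODE by gene identifier or symbol. Interval bounds cover counting error only.

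The members and the 19 gene lists were chosen with earlier results of these data known. Named members were the 10 widest, the 5 highest and 5 lowest by value, the 5 largest falls and rises of width, those beside the threshold, and up to 4 per gene list. Transfer RNA, gene end and value-change examples were chosen after their values were seen. Alternatives covered thresholds, merging, the choice of regions, scaling, pseudocount, filters, leaving out each replicate and a replicate block. One of the members of highest value is not reported here.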

Additional observations from a re-analysis of the deposited data

How the results depend on the processing

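Fixing the width at 1000 bp gave 1623 regions and at 1500 bp 78. The rule held in all 6 samples gave 355 regions, and leaving out 1 DMSO sample gave 624 to 1155, the highest without DMSO replicate 2. Merging settings and a value of at least 30 left the number at 570. The promoter share was 76.7% within 500 bp and 81.9% with protein-coding genes alone. The difference in broad peaks per sample kept its sign in every alternative run, from -592 without DMSO replicate 2 to -144 without DMSO replicate 1 among those with 1 sample left out, -540 at 1000 bp, -92.7 at 1500 bp and -0.636 as a percentage of all peaks. The median log2 width change was 0.016 with regions chosen on APH widths, 0.0018 with those wide in all 6 samples and -0.0098 with the mean width, and ranged from -0.033 to -0.011 with 1 sample left out, nearest to 0 without APH replicate 2. The median value change was -0.10 after quantile normalization and ranged from -0.33 to -0.23 with 1 sample left out.

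Regions called narrower in the width fit numbered 0 with summed lengths, 26 with a mean width of at least 500 bp and 0 to 131 with 1 sample left out (131 without DMSO replicate 2 and 102 without APH replicate 3). Those called wider numbered 1 with summed lengths and 0 to 17 with 1 sample left out (17 without DMSO replicate 2 and 15 without APH replicate 3). Regions called lower in value numbered 1 when centred and 0 to 3 with 1 sample left out, the 3 without DMSO replicate 2. The cause was not tested.

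No label ties a replicate number to a shared batch. The deviations of the samples numbered 1 correlated at -0.053 for width and -0.0067 for value, those numbered 2 and 3 at 0.30 to 0.52, and DMSO replicate 1 correlated best with APH replicate 3, so pairing by number was left undecided and was not used. With the replicate block, 1021 regions (2.04%) were called higher in value, 2 of them members (0.351% of members), and 5583 (11.1%) lower, 223 of them members (39.1%), and 0 regions in width in either direction. The within-number differences in broad peaks were -776, -40 and -120, with a mean of -312. The unknown depth, the open question of library scaling and the dependence of splitting on peak calling limit what single members can show.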
